A study of Mus musculus with 11 samples.

Results

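Genes of the myelin sheath and of the cells that make it were examined in mouse RPE/choroid after nanosecond laser treatment. The 8 genes are Mbp, Pmp22, Mag, Prx, Egr2, Sox10, S100b and Gpr37l1, picked by symbol from a count table of 14602 genes, which holds 7 of them; Egr2 is not in the table analysed. They were picked with the laser comparison already known, so their differences between the groups are given as a description, with no test. All mice were C57BL/6J and 12 months old when the tissue was taken. The naïve control group held 6 libraries of untreated, age-matched mice, and the laser treated group held 5 libraries of mice that were lasered (2RT nanosecond laser) at 9 months and left for 3 months. The tissue is the retinal pigment epithelium (RPE) together with the vascular choroid beneath it, with the nerves, pigment cells and stroma that the choroid contains, and each library stands for the whole tissue and not for the laser spots. Before library preparation the RNA was amplified with a SmartSeq kit, made for small amounts of starting material. The labels give 11 libraries and do not say whether each came from 1 mouse, so the errors below measure the spread between libraries.

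Myelin is a stack of glial membrane wrapped around an axon. Schwann cells make it in peripheral nerves, such as the ciliary nerves that cross the choroid, and oligodendrocytes make it in the central nervous system, the optic nerve included. The transcription factor Sox10 is required in both, and Egr2 works with it in Schwann cells to switch on the genes of peripheral myelin. Mbp, a protein that seals the inner faces of the membrane, is used in both sheaths. Pmp22 and Prx belong to peripheral myelin, Mag lies in the membrane that faces the axon in both sheaths, and S100b and Gpr37l1 are found in several kinds of glia.

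On the GRCm38 assembly Pmp22 (ENSMUSG00000018217) lies on the forward strand at chr11:63128982-63159547, Prx (ENSMUSG00000053198) at chr7:27499324-27520214, Egr2 (ENSMUSG00000037868) at chr10:67535475-67542188 and S100b (ENSMUSG00000033208) at chr10:76253853-76261159. On the reverse strand lie Mag (ENSMUSG00000036634) at chr7:30899176-30914873, Sox10 (ENSMUSG00000033006) at chr15:79154908-79165240 and Gpr37l1 (ENSMUSG00000026424) at chr1:135160234-135167681.

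The RefSeq promoter table for GRCm38.p6 held 6 of the 8 genes, all but Mbp and Sox10. The 250 bases before the start of transcription are shown for Mag and Gpr37l1, whose levels stood farthest apart between the groups among the genes with a promoter, and for 2 of the starts of Pmp22, which is known to use separate starts in myelinating Schwann cells and in other cells. These windows overlap no annotated exon. Capitals mark matches, on either strand, to ACAAAG or ACAATG, letters bound by SOX factors, to GCGNGGGCG, the motif of EGR factors, to GGGCGG, the GC box, and to TATAAA, the TATA box; GCGNGGGCG and GGGCGG can overlap each other.
Mag, chr7:30914923-30915172, reverse strand: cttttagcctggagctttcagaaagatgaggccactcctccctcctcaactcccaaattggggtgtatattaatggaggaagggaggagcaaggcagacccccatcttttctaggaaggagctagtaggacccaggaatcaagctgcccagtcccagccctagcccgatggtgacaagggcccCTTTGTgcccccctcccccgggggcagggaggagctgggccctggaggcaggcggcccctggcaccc
Gpr37l1, chr1:135167682-135167931, reverse strand: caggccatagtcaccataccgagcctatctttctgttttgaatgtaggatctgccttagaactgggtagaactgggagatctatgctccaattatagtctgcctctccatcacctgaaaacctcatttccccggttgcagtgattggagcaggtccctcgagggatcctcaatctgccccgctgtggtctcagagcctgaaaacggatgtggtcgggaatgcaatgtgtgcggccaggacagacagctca
Pmp22, upstream start, chr11:63128732-63128981, forward strand: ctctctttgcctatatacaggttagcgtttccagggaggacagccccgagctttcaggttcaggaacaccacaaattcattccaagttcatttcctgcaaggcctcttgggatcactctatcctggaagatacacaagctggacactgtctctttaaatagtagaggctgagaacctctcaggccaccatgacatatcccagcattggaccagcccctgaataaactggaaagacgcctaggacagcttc
Pmp22, next start, chr11:63131207-63131456, forward strand: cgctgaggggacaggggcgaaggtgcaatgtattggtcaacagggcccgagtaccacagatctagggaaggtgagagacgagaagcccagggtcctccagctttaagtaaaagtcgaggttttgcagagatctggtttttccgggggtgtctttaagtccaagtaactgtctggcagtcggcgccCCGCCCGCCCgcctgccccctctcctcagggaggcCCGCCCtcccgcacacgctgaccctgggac

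The Mag window holds 1 match, ACAAAG on the opposite strand, which begins 67 bases before the start. Of all 32851 windows of the table, 16.5% hold ACAAAG and 25.2% hold either of the SOX motifs. The Gpr37l1 window and the window of the upstream Pmp22 start hold no match. The window of the next Pmp22 start holds 3 GC boxes, a motif present in 32.7% of all windows, and 61.2% of its bases are G or C, against 48.8% at the upstream start. No window of the 6 genes holds GCGNGGGCG, found in 4.7% of all windows, or TATAAA, found in 12.4%. A match is a string of letters and was not tested for binding.

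Library totals lay between 25700881 and 38755994 counts and did not differ between the groups beyond their spread (exact two-sided permutation test, p = 0.528). Levels are given as CPM, the reads of a gene per 1000000 reads of its library after TMM scaling, and a difference as log2 fold change of laser treated minus naïve control with its standard error (SE). All 12 RPE markers listed were in the table, with a summed level of 96404 to 134748 CPM in naïve control and 80752 to 132207 CPM in laser treated libraries. Rgr made up the largest part of this sum, and Best1 of the same list stood at only 0 to 3.08 CPM in controls. Over all 14602 genes edgeR called 0 (0%) at an adjusted p under 0.05, while 2325 genes (15.9%) had an unadjusted p under 0.05, and DESeq2 called 547 (7.88%) of the 6946 genes to which it gave an adjusted p. Genes rich in G and C tended to be higher in the laser treated libraries: the median log2 fold change was 0.29 over the 3079 genes whose transcripts exceed 55% GC and fell to -0.30 over the 3436 genes up to 45%, at a mean of 1 CPM or more, so differences with this trend removed are also given where they bear on a result.

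Among the 7 genes measured, Mag, Mbp and Gpr37l1 had log2 fold changes above 1, as had 2.54% of all genes; this is the comparison the genes were picked on, and nothing is read from the count. Sox10 and S100b were higher by smaller amounts, Pmp22 lay within 1 SE of no difference, and Prx was lower with an SE nearly as large as its difference. Groups of libraries did not overlap for 1 of the 7, Mag, which was higher after laser; over all genes 1.4% were separated in that direction.

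**Figure D1:**
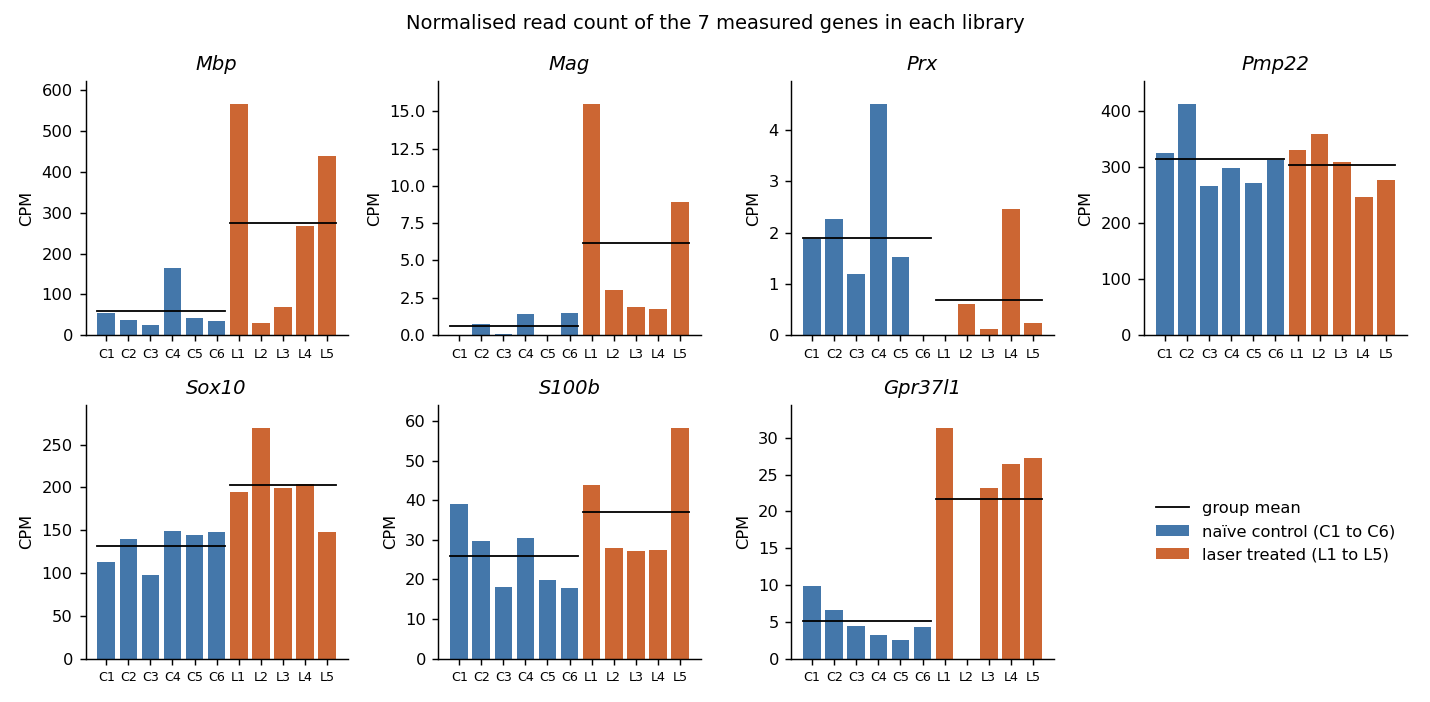
Normalised read count in CPM (vertical axes, which differ) of the 7 genes in 6 naïve control libraries (C1 to C6, blue) and 5 laser treated libraries (L1 to L5, orange), with group means as lines. Mbp reached 566 CPM in laser 1 and 30.1 CPM in laser 2, while Pmp22 stayed between 247 and 413 CPM in all 11 libraries.

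Sox10, the transcription factor shared by both myelinating lineages and also known in pigment cells of the choroid, was abundant. It measured 113, 140, 97.8, 149, 144 and 148 CPM in naïve control libraries 1 to 6 and 194, 269, 199, 203 and 148 CPM in laser treated libraries 1 to 5. The group means were 132 ± 21.4 CPM (SD, n = 6) and 203 ± 43.5 CPM (SD, n = 5), and the log2 fold change was 0.62 (SE 0.16). The laser treated libraries 1 to 4 lay above all controls, and laser 5 lay within the control range. Read depth over the last exon of Sox10 was taken per 1000000 library counts, without TMM scaling, and is called scaled depth from here on. It ran from 6.23 to 9.20 in controls and from 9.51 to 15.7 in laser treated libraries, so on that scale the groups did not overlap. The share of all genes separated on that scale is not given here, so nothing is read from this. The Sox10 transcript has a GC content of 61.8%, and with the GC trend removed its log2 fold change was 0.35. Melanocyte markers, 11 genes all in the table, summed to 1499 to 3375 CPM in control and 1562 to 3415 CPM in laser treated libraries. The RPE holds melanin too, so this sum does not measure melanocytes alone. The part of melanocytes in the Sox10 difference was not tested.

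Egr2, the partner of Sox10 in Schwann cells, could be followed only in the assembled transcripts. Its last exon had assembled coverage in control 2 alone, at a scaled depth of 0.157, where its TPM (transcripts per 1000000 transcripts) was 1.23. It is listed at 0 in the other 10 libraries, in which the assembler may also have left out a thinly covered transcript.

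Mbp (ENSMUSG00000041607) covered the widest range of CPM of the 7 genes. It measured 53.0, 36.0, 24.3, 165, 42.5 and 33.6 CPM in naïve control libraries 1 to 6 and 566, 30.1, 69.5, 268 and 440 CPM in laser treated libraries 1 to 5. Laser 1, 4 and 5 were above every control, laser 3 was above every control but control 4, and laser 2 was lower than all but 1 of the controls. Means were 59.0 ± 52.7 CPM (SD, n = 6) and 275 ± 231 CPM (SD, n = 5), with a log2 fold change of 2.22 (SE 0.74), or 4.65-fold. It was 2.17 with the GC trend removed. Leaving out laser 1 gave 1.77 and leaving out control 4 gave 2.85.

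The reads of Mbp were not spread alike along the gene. Mbp has a far upstream start, used for longer transcripts known as golli, one form of which ends early, and a downstream start, used for the myelin proteins. Scaled depth over the last exon, shared by the myelin transcripts, was 1.96, 0.976, 0.305, 10.5, 1.72 and 0.929 in controls 1 to 6 and 41.3, 1.32, 4.39, 21.6 and 34.2 in laser 1 to 5. Depth over the early end of the upstream transcript was 0.588 to 1.29 in the 6 controls and 0.426 to 1.93 in laser 1, 2 and 3, with no assembled transcript there in laser 4 and 5. The 2 stretches therefore stood in a ratio of 0.518 to 2.42 in the controls other than control 4, 8.13 in control 4, and 21.4, 3.10 and 6.60 in laser 1, 2 and 3. Over the first exon of the downstream start, depth was 0 to 1.295 in controls, 1.94, 0.427 and 0.666 in laser 1, 2 and 3, and 11.0 and 14.6 in laser 4 and 5. Laser 2 and 3 lay in the control range there, and laser 1, the highest over the last exon, lay little above it. That exon adjoins the early end, and in most libraries 1 assembled transcript spans both, so their depths there are not separate measurements. The first exon of the upstream start was covered in 2 controls and 2 laser treated libraries, at no more than 0.212.

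**Figure D2:**
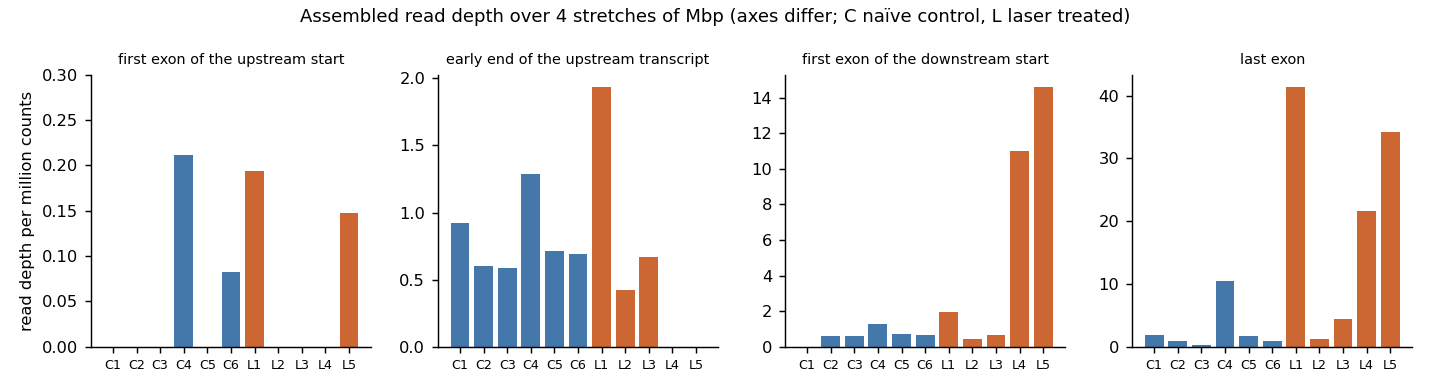
Assembled read depth per 1000000 counts (vertical axes, which differ) over 4 stretches of Mbp in 6 naïve control (C, blue) and 5 laser treated (L, orange) libraries. Depth over the last exon reached 41.3 in laser 1, while the early end of the upstream transcript did not exceed 1.93.

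Pmp22, a membrane protein of compact peripheral myelin that many other tissues also express, did not follow Mbp. It measured 325, 413, 266, 298, 272 and 313 CPM in naïve control libraries 1 to 6 and 330, 359, 310, 247 and 276 CPM in laser treated libraries 1 to 5. The ranges overlapped almost entirely, with means of 315 ± 53.3 CPM (SD, n = 6) and 305 ± 43.9 CPM (SD, n = 5) and a log2 fold change of -0.05 (SE 0.14). In the assembled transcripts no coverage was assembled over the first exon of the upstream start in any of the 11 libraries. This does not show that it had no reads, since Prx is listed at 0 TPM in control 1 at a count of 66. The first exon of the next start was covered in 4 controls and 3 laser treated libraries, at a scaled depth of up to 1.06, and that of the next one downstream in 2 and 4 libraries. The last exon was covered in every library, at a scaled depth of 25.6 to 39.998, so first exons were thinly covered throughout.

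Mag, the glycoprotein through which the sheath contacts the axon, was scarce. Its counts in naïve control libraries 1 to 6 were 0, 18, 2, 46, 0 and 50, or 0 to 1.51 CPM, and in laser treated libraries 1 to 5 they were 478, 110, 67, 61 and 296, or 1.75 to 15.5 CPM. The count of 0 in control 1 allows a level of up to 0.0849 CPM, and that in control 5 up to 0.0813 CPM. Every laser treated library lay above every control, by a margin of 1.75 against 1.51 CPM at the boundary. The means were 0.615 ± 0.702 CPM (SD, n = 6) and 6.20 ± 5.95 CPM (SD, n = 5), and the log2 fold change was 3.33 (SE 1.19), 3.20 with the GC trend removed. In the assembled transcripts the last exon of Mag was covered in 1 control, control 4, at a scaled depth of 0.158, and in all 5 laser treated libraries. Laser 1 and 5 stood at 0.653 and 0.707, while laser 2, 3 and 4, at 0.0940 to 0.109, lay below control 4. Over whole assembled transcripts the groups overlapped, since control 6 stood at 3.16 TPM and laser 4 at 2.78 TPM.

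Prx, periaxin, a scaffold of the Schwann cell membrane, was close to the limit of these libraries. Its counts were 66, 56, 37, 150, 56 and 0 in naïve control libraries 1 to 6 and 0, 22, 4, 86 and 8 in laser treated libraries 1 to 5. A count of 0 allows up to 0.0907 CPM in control 6 and 0.0971 CPM in laser 1. The groups overlapped, with means of 1.89 ± 1.497 CPM (SD, n = 6) and 0.683 ± 1.02 CPM (SD, n = 5) and a log2 fold change of -1.46 (SE 1.28). Without laser 4 it was -2.99, and over the TPM of assembled transcripts with a pseudocount of 1 it was 0.03, so its size and direction depended on the library and the measure.

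S100b, a calcium-binding protein of Schwann cells, astrocytes and other glia, was higher after laser on average, with overlapping groups. It measured 39.04, 29.7, 18.2, 30.4, 19.8 and 17.8 CPM in naïve control libraries 1 to 6 and 43.8, 28.0, 27.3, 27.5 and 58.2 CPM in laser treated libraries 1 to 5. Laser 1 and 5 lay above all controls and the other 3 within their range. Means were 25.8 ± 8.59 CPM (SD, n = 6) and 37.0 ± 13.8 CPM (SD, n = 5), with a log2 fold change of 0.52 (SE 0.27). Leaving out laser 5 gave 0.29, and removing the GC trend gave 0.56.

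Gpr37l1, an orphan receptor of astrocytes and other glia for which prosaposin has been proposed as a ligand, split the laser treated libraries differently from Mbp. It measured 9.82, 6.57, 4.39, 3.19, 2.60 and 4.35 CPM in naïve control libraries 1 to 6. In laser treated libraries 1, 3, 4 and 5 it measured 31.3, 23.2, 26.4 and 27.2 CPM, and in laser 2 its count was 0, which allows up to 0.0815 CPM. Thus 4 libraries lay well above all controls and 1 lay below all of them. The means were 5.15 ± 2.66 CPM (SD, n = 6) and 21.6 ± 12.4 CPM (SD, n = 5), with a log2 fold change of 2.07 (SE 0.88). Without laser 2 the log2 fold change was 2.39, and over the TPM of assembled transcripts it was 1.43 with a pseudocount of 1 and 1.01 with 0.1. Psap, which encodes prosaposin, had a log2 fold change of 0.41 (SE 0.17, edgeR adjusted p = 0.274), which was 0.22 with the GC trend removed.

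**Figure D3:**
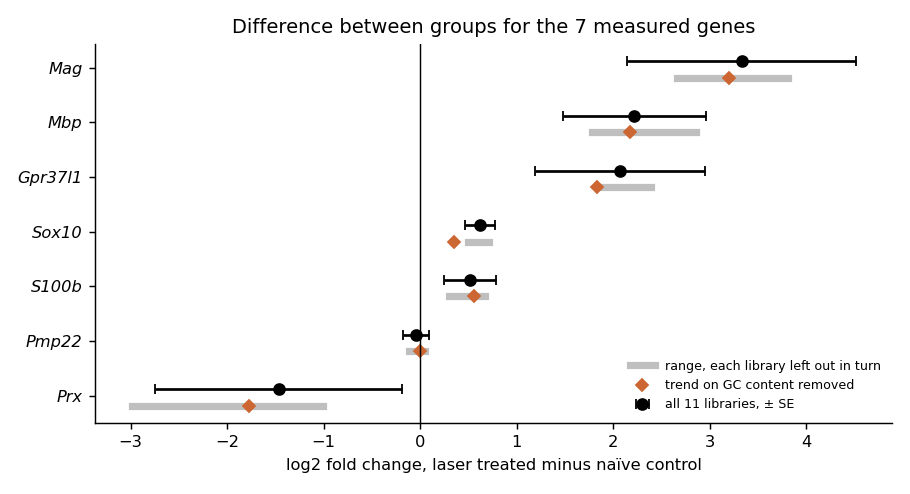
Log2 fold change of laser treated minus naïve control (horizontal axis) for the 7 measured genes, with points and bars for the fit of all 11 libraries ± SE, diamonds for the fit without the GC trend and grey bars for the range when each library is left out in turn. Mag, Mbp and Gpr37l1 lie above 1 in all of these, and Sox10 drops from 0.62 to 0.35 without the GC trend.

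Levels can be compared between genes only per transcript length. The length used was that of the longest annotated transcript of each gene, 4797 bases for Mbp. Reads from a shorter transcript are then divided by too great a length, so the order below depends on this choice. In naïve control libraries the order of CPM per kilobase was Pmp22 at 173 ± 29.3, Sox10 at 47.5 ± 7.70, S100b at 17.4 ± 5.79, Mbp at 12.3 ± 11.0, Gpr37l1 at 2.27 ± 1.17, Prx at 0.349 ± 0.276 and Mag at 0.253 ± 0.289 (SD, n = 6 for each). S100b and Mbp, and Prx and Mag, are neighbours whose levels differed by less than their spread. In laser treated libraries Mbp, at 57.3 ± 48.2 CPM per kilobase (SD, n = 5), stood above S100b at 24.9 ± 9.30 and overlapped Sox10 at 72.9 ± 15.6. The genes also differed in how evenly the controls held them. The coefficient of variation over the 6 controls was 114% for Mag and 89.2% for Mbp, above those of 96.2% and 90.8% of all genes, and 16.2% for Sox10 and 16.9% for Pmp22, above those of 17.0% and 18.9%.

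The assembled transcript files carry a label, R1 or R2, whose meaning is not given. R1 marks 3 controls and laser 1 and 2, and R2 marks 3 controls and laser 3, 4 and 5. The log2 ratio of the group means, with 0.1 CPM added, was 2.98 within R1 and 1.69 within R2 for Mbp, 4.68 and 2.01 for Mag, 1.17 and 2.88 for Gpr37l1, 0.99 and 0.32 for Sox10 and 0.31 and 0.73 for S100b. The group means of all 5 genes were higher after laser within both labels. In R1 the laser treated mean rests on laser 1 and 2 only, which differed. Laser 2 lay below the R1 control mean for Mbp (30.1 against 37.8 CPM), Gpr37l1 (0 against 6.93 CPM) and S100b (28.0 against 29.0 CPM). For Pmp22 the ratios were 0.04 and -0.08, and for Prx they were -2.24 and -1.02.

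The name Schwann cell genes could not be checked on all of its markers. Of the genes that define peripheral myelin, Pmp2, a lipid carrier, Gjb1, a gap junction protein, and Egr2 are not in the table analysed. Whether such genes were filtered out earlier is not known, so a missing row does not show that a gene was not expressed. Of the 14 further Schwann cell markers listed 10 were in the table, and the receptor Erbb3, the factor Foxd3 and Gfra3 were among the 4 that were not. Those 10 summed to 77.0 to 159 CPM in controls and 96.7 to 313 CPM in laser treated libraries. Of 11 oligodendrocyte markers 6 were in the table and Mog, Opalin, Olig1, Olig2 and Nkx6-2 were not. Their sum, 756 to 1055 CPM in controls and 752 to 1254 CPM in laser treated libraries, was mostly Ermn, at 543 CPM or more in every library, and Myrf. Both were at 114 CPM or more in every control, while Mobp of the same list was at 0 to 0.244 CPM in 5 of them. The sum is therefore not read as a level of oligodendrocyte RNA, and the cells that Ermn and Myrf came from were not tested. Of the 8 markers of Müller cells and astrocytes all were in the table, with sums of 674 to 957 CPM and 667 to 1377 CPM. Markers of photoreceptors summed to 5553 to 21214 CPM in controls and 3696 to 18490 CPM in laser treated libraries, those of skeletal muscle to 64.7 to 575 and 70.2 to 860 CPM, those of fibroblasts to 96.8 to 553 and 135 to 479 CPM, and those of endothelium to 103 to 316 and 177 to 521 CPM, so the groups overlapped for each. In whole tissue, more cells of a type and more RNA per cell cannot be told apart.

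Within those marker lists, the gene most like Mbp across libraries was Mobp. Mobp, a protein of central myelin, measured 0 to 0.244 CPM in 5 controls and 5.32 CPM in control 4, and 33.7, 0, 2.65, 16.1 and 20.4 CPM in laser 1 to 5. As with Mbp, control 4 was the highest control and laser 2 the lowest laser treated library. Hapln2, a link protein at central nodes, stood at 0.190 to 0.852 CPM in controls and at 9.29, 0, 1.77, 3.24 and 3.46 CPM in laser 1 to 5. Not all markers of that list shared this order. Ermn had a log2 fold change of -0.19 (SE 0.16), or 0.14 with the GC trend removed, and was lowest of all libraries in laser 5, at 543 CPM. Myrf was higher after laser with no overlap, at 176 to 241 CPM against 114 to 163 CPM in controls, and was highest in laser 2. Over all genes 1.4% were separated in that direction. Its log2 fold change was 0.61 (SE 0.12, edgeR adjusted p = 0.172, DESeq2 adjusted p = 0.0019), or 0.36 with the GC trend removed.

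To leave the laser comparison aside, each gene's log2 CPM (with 0.5 added) was taken as a deviation from its group mean, and deviations were correlated over the 11 libraries for 43 pairs, with exact permutation tests that shuffled libraries within groups. Mbp deviated together with Mobp at Pearson r = 0.974 (exact permutation p = 0.00024, adjusted over 43 pairs 0.0105) and Spearman rho = 0.964 (exact permutation p = 0.00106, adjusted 0.0458). Without the 2 libraries farthest from the median of Mbp, laser 2 and control 4, r was 0.954. Pairs that passed by r also included those at 0.900 for Vim, a filament protein of many cell types (exact permutation p = 0.00252, adjusted 0.0362), 0.838 for Hapln2 (exact permutation p = 0.0045, adjusted 0.0387) and 0.808 for Cldn11, a tight junction protein of central myelin (exact permutation p = 0.00399, adjusted 0.0387). None of these 3 passed by rho, with exact permutation p of 0.00706 for Vim (rho = 0.873, adjusted 0.0759), 0.0331 for Hapln2 (rho = 0.736, adjusted 0.179) and 0.00488 for Cldn11 (rho = 0.864, adjusted 0.0759). Without laser 2 and control 4 their r was 0.793, 0.781 and 0.788. Ermn and Myrf, listed as oligodendrocyte markers but abundant also where Mobp was near 0, did not pass. Ermn had r = -0.03 (exact permutation p = 0.957, adjusted 0.995) and rho = -0.05 (exact permutation p = 0.912, adjusted 0.951). Myrf had r = 0.0028 (exact permutation p = 0.995, adjusted 0.995) and rho = 0.318 (exact permutation p = 0.364, adjusted 0.682). Without those 2 libraries r was 0.154 for Ermn and 0.114 for Myrf. Bcas1 of the same list had r = 0.690 (exact permutation p = 0.069, adjusted 0.297) and rho = 0.673 (exact permutation p = 0.0563, adjusted 0.242), and r = 0.576 without them.

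None of the 21 pairs among the 7 genes themselves passed. Mbp and S100b had r = 0.628 (exact permutation p = 0.059, adjusted 0.297) and rho = 0.682 (exact permutation p = 0.0332, adjusted 0.179), and r = 0.625 without laser 2 and control 4. Mbp and Pmp22 had r = -0.29 (exact permutation p = 0.399, adjusted 0.645) and rho = -0.22 (exact permutation p = 0.553, adjusted 0.709), and r = -0.05 without those 2 libraries. Gpr37l1 and Sox10 had r = -0.65 (exact permutation p = 0.065, adjusted 0.297) and rho = -0.76 (exact permutation p = 0.0104, adjusted 0.0897), and r = -0.87 without laser 5 and control 3. A pair that missed the threshold was not shown to vary independently.

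**Figure D4:**
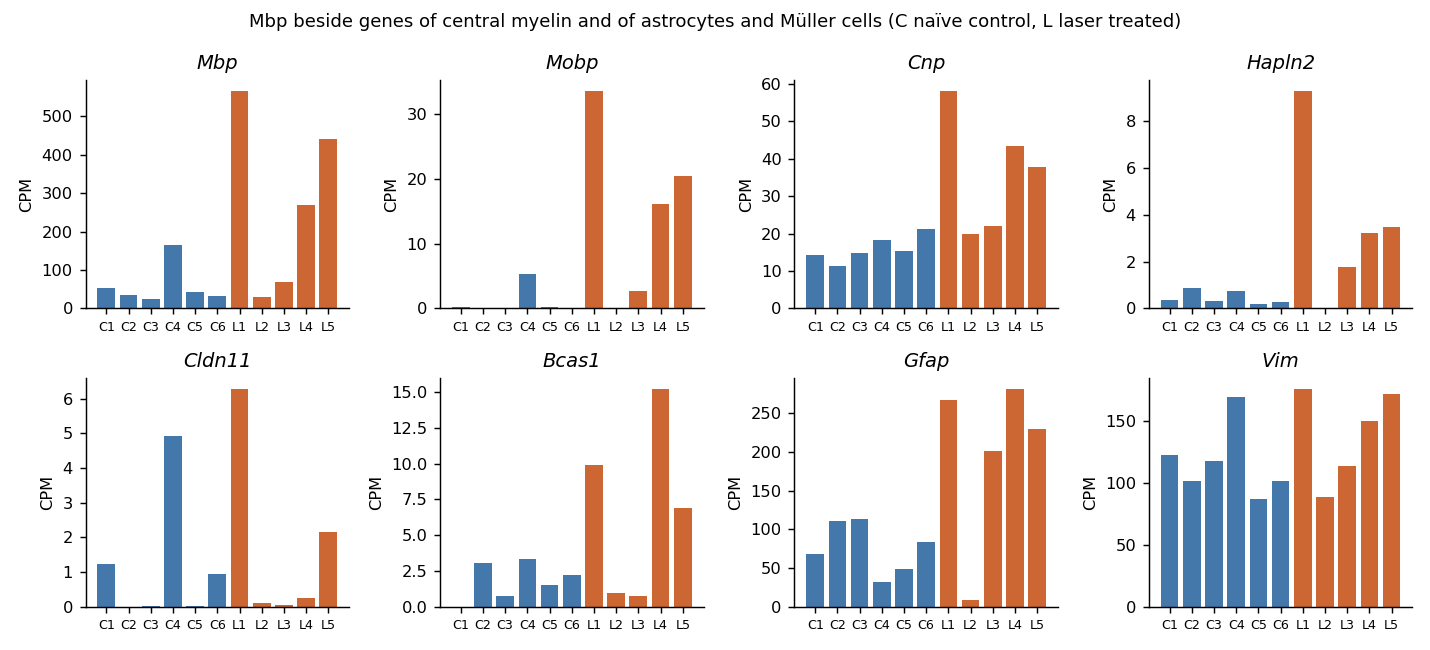
CPM (vertical axes, which differ) of Mbp, of 5 genes used in central myelin (Mobp, Cnp, Hapln2, Cldn11, Bcas1) and of Gfap and Vim, marker genes of astrocytes and Müller cells, in 6 naïve control (C, blue) and 5 laser treated (L, orange) libraries. Mobp is at 33.7 CPM in laser 1 and at 5.32 CPM in control 4, the highest libraries of Mbp in each group, and Gfap is at 9.19 CPM in laser 2 and at 201 CPM or more in the other laser treated libraries.

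Gfap, the filament protein of astrocytes and of stressed Müller cells, had its lowest value in the same laser treated library as Gpr37l1. It measured 67.9, 111, 113, 31.6, 49.1 and 84.3 CPM in controls 1 to 6 and 267, 9.19, 201, 282 and 229 CPM in laser 1 to 5. Like Gpr37l1 it was below every control in laser 2 and above every control in the other 4. Its log2 fold change was 1.37 (SE 0.61, edgeR adjusted p = 0.301). Slc1a3 of the same list was also below every control in laser 2, at 13.1 CPM against 20.0 CPM or more. Its log2 fold change was 0.54 (SE 0.40). Vim was at its lowest of the laser treated group in laser 2, at 88.9 CPM, which lay within the control range. Other markers of the list differed from Gfap. Aqp4 had a log2 fold change of -0.36 (SE 0.45) and Kcnj10 of -0.36 (SE 0.76). In laser 2 Glul, at 410 CPM, and Aldh1l1, at 58.2 CPM, lay above every control, whose highest were 364 and 57.8 CPM. The part of Müller cells or astrocytes in the Gpr37l1 difference, and of oligodendrocyte RNA in those of Mbp and Mag, was not tested.

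In all, 6 wider lists of genes that work with these 8 were counted in the same fit, and they too were drawn up with results of these data known. Of 63 listed genes 53 were in the table, and edgeR called 0 of them at an adjusted p under 0.05. At an unadjusted p under 0.05 there were 13 higher and 1 lower, or 26.4% of the 53 in both directions. Of all genes 15.9% passed, with 8.24% higher and 7.68% lower. DESeq2 called 3, Cnp, Lamb2 and Elovl1, among those of the 53 to which it gave an adjusted p. Over the whole table it called 7.88% of such genes. Many of the 53 had no DESeq2 adjusted p, and how many had one is not given here, so nothing is read from this count. Of the 53 genes 67.9% had a log2 fold change above 0, as had 48.5% of all genes, and their median was 0.20 against -0.02. With the GC trend removed the medians were 0.21 and 0.00, and 11 listed genes had an unadjusted p under 0.05. The share over all genes in that fit is not given here, so nothing is read from this count.

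Among the 11 other myelin proteins, of which 8 were in the table, 3 were higher at an unadjusted p under 0.05, as were 8.24% of all genes. Cnp, an enzyme of the cytoplasmic channels of myelin, had the smallest p of the list. It measured 11.4 to 21.2 CPM in controls and 58.1, 20.0, 21.9, 43.3 and 37.7 CPM in laser 1 to 5, with a log2 fold change of 1.19 (SE 0.27, edgeR adjusted p = 0.172). Cadm4, an adhesion molecule of the sheath facing the axon, had 0.61 (SE 0.24, edgeR adjusted p = 0.251), or 0.32 with the GC trend removed. The median of the 8 was 0.40, and Mal, another membrane protein of compact myelin, stood at 0.07 (SE 0.74).

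Of the 8 genes of the periaxin complex and the basal lamina 7 were in the table and Drp2, the dystroglycan partner that binds Prx, was not. Itgb4, the laminin receptor subunit of the outer Schwann cell membrane, had a log2 fold change of 1.56 (SE 0.60, edgeR adjusted p = 0.238), and Lamb2, a laminin chain also found in vessels and in the retina, had 0.88 (SE 0.26, edgeR adjusted p = 0.177), or 0.60 with the GC trend removed. Their median was 0.48. Of the 10 enzymes of myelin lipids 8 were in the table, without Ugt8a and Gal3st1, which make and sulphate galactosylceramide. Their median was 0.14. Elovl1, an elongase of very long chain fatty acids, was at 318 ± 41.5 CPM (SD, n = 6) in controls and 429 ± 43.9 CPM (SD, n = 5) in laser treated libraries. It was higher after laser with no overlap, as were 1.4% of all genes. Its log2 fold change was 0.43 (SE 0.12, edgeR adjusted p = 0.174), or 0.30 with the GC trend removed.

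Of the 15 further regulators of the Schwann lineage 13 were in the table, without Pou3f2 and Foxd3. Of these 7 had a log2 fold change above 0, as had 48.5% of all genes, and 6 below. Nab2, a cofactor that binds EGR factors, had 1.44 (SE 0.52, edgeR adjusted p = 0.218), and Jun, a factor of Schwann cells after injury and of many other stressed cells, had 0.89 (SE 0.29, edgeR adjusted p = 0.195). The value of Nab2 rested on 1 library, and without laser 2 it was 0.56. Id2, an inhibitor of differentiation, was lower, at -0.54 (SE 0.21, edgeR adjusted p = 0.241). Their median was 0.06.

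Of the 11 signals between axon and Schwann cell 9 were in the table, without Nrg1 and Erbb3. At an unadjusted p under 0.05, 2 were higher, as were 8.24% of all genes. Lgi4, a secreted protein needed for peripheral myelination, measured 3.79 ± 1.55 CPM (SD, n = 6) in controls and 9.65 ± 2.39 CPM (SD, n = 5) in laser treated libraries. Its log2 fold change was 1.35 (SE 0.34, edgeR adjusted p = 0.172). Lgi4 and Elovl1 were the 2 of the 53 genes that were higher after laser with no overlap, as were 1.4% of all genes. Erbb2, the receptor subunit that pairs with Erbb3, had 1.49 (SE 0.45, edgeR adjusted p = 0.177). All 8 genes listed as partners of Mag and Gpr37l1 or their relatives were in the table, with a median of 0.37. Rtn4rl1 had the smallest p among them at a log2 fold change of 0.35 (SE 0.11, edgeR adjusted p = 0.185), which was 0.10 with the GC trend removed.

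**Figure D5:**
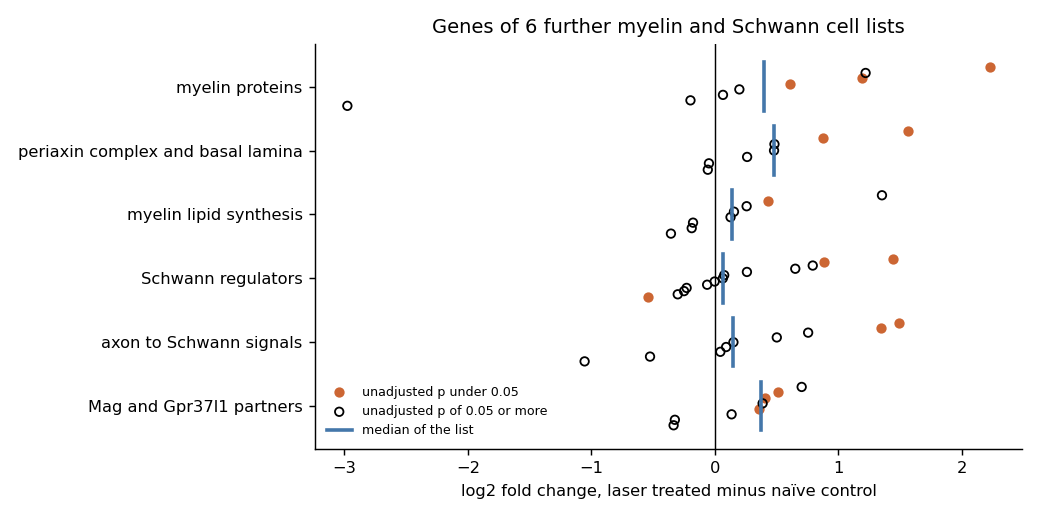
Log2 fold change of laser treated minus naïve control (horizontal axis) for the genes of 6 further lists that are in the table, filled where the unadjusted p was under 0.05, with the median of each list as a bar. The medians run from 0.06 for the Schwann regulators to 0.48 for the periaxin complex and basal lamina, and none of the 53 genes passed an adjusted p under 0.05.

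The gene whose deviations from the group means were most like those of a given gene, over 11 libraries and among genes with a mean of 1 CPM or more, was Mobp for Mbp (r = 0.974), Pdcd6 for Mag (r = 0.964), Ptpn23 for Pmp22 (r = 0.923), Arhgef2 for Prx (r = 0.921), Nmt1 for Sox10 (r = 0.966), Ucp3 for S100b (r = 0.908) and Pwwp2a for Gpr37l1 (r = 0.974). To the mean of the 7 genes' standardised deviations the closest included Smtnl2 (r = 0.910), Tmem88b (r = 0.908), Acox2 (r = 0.903), Sh3bgrl (r = 0.891), Nhedc2 (r = 0.887), Cebpg (r = 0.885), St8sia4 (r = 0.881), Hlcs (r = 0.858) and Taf9b (r = 0.856). These are the extremes of a very large number of correlations over few libraries and are given as a description.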

How the data were processed

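RNA libraries of RPE/choroid, 6 naïve control and 5 laser treated, were analysed, grouped by the treatment given in the labels. The authors deposited a table of raw read counts per gene, without normalization, beside the log2 fold changes, p-values and FDR of their own comparison, which were not used. They also deposited, for each library, StringTie transcripts with coverage, FPKM and TPM, each with 1 exon. The submitters' processing notes name bcl2fastq 2.18.0.12, Trim Galore, STAR 2.5.3a, featureCounts 1.5.3, StringTie 1.3.3, edgeR 3.22.3 and mm10/GRCm38. Whether counting used strand is not given in the sources used here.

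Counts of 14602 genes were fitted with edgeR 4.0.16 in R 4.3.3 (TMM, filterByExpr, which removed 0 genes, robust quasi-likelihood tests, Benjamini-Hochberg adjustment over all genes, threshold 0.05); the SE is the log2 fold change divided by the root of F. Methods were tested on simulated data. DESeq2 1.42.0, other normalizations and filters, a replicate block, the transcript file label, removal of a loess trend on GC content (span 0.3) and each library left out were alternatives. Transcript length and GC came from the longest transcript of each gene in GENCODE M21, for 97.6% of genes. Exon depth is assembled coverage averaged over a stretch, per 1000000 counted reads. A count of 0 was given the limit of 3 counts. Limits cover counting error only. At these depths the precision is given by the SD and SE. Tables used Python 3.11.15 with pandas 2.3.3.

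The 8 genes and all lists were chosen with earlier results of these data known. Named genes were the 8, the listed myelin proteins and Schwann regulators that were not in the table or had an unadjusted p under 0.05, the gene of smallest p in each wider list, and the genes most correlated with the 8 or their mean; marker genes, other genes not in the table, Itgb4, Erbb2, Psap and Mal were named after their values were seen. Quantitative PCR, histology and fellow eyes were not analysed here. Some genes that this rule names are not reported here.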

Additional observations from a re-analysis of the deposited data

Results flagged for a closer look

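Single libraries stood apart from the others of their group in 5 of 44 sets of values examined, where the nominal rate of the criterion by chance is about 1 in 20 for independent, normally distributed sets. Mbp was at 165 CPM in control 4 against 24.3 to 53.0 CPM in the other controls, and the melanocyte markers summed to 3375 CPM in the same library against 1499 to 2158 CPM. Gpr37l1 was at 0 CPM in laser 2 against 23.2 to 31.3 CPM in the other laser treated libraries, and the partners of Mag and Gpr37l1, a sum made up mostly of Psap, reached 3840 CPM there against 2589 to 2872 CPM. Prx was at 2.46 CPM in laser 4 against 0 to 0.598 CPM.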

How the results depend on the processing

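The count of genes called over the whole table depended on the tool: 0 in edgeR, 547 in DESeq2, 2 with at least 10 counts in every library and 0 to 4 when each library was left out, with 4 without laser 2. Of the wider lists edgeR called 0 and DESeq2 3. Of the 7 genes 5 had a log2 fold change above 0; with at least 10 counts in every library the count was 3, of the 4 genes that such a filter keeps. Mag moved to 4.84 with the replicate block, 4.52 with the block and the GC trend removed and 4.96 over TPM with a pseudocount of 0.1, and Prx moved to -2.84, -3.15 and 0.16. The cause was not tested. Samples sharing a replicate number did not deviate together in every pair: their correlations ran from -0.04 to 0.35, and 2 of 5 laser treated libraries correlated best with their own number. The replicate block called 0 genes over the table and 0 of the wider lists, as did the fit without it. Summed marker levels were recomputed with CPM on library totals and with each library left out; their log2 ratios moved by less than 1 SD of the libraries, but changed sign for 5 lists, with -0.60 to 0.05 for photoreceptors, -0.25 to 0.17 for melanocytes, -0.08 to 0.34 for fibroblasts, -0.14 to 0.06 for oligodendrocytes and -0.12 to 0.05 for RPE. The p of the library totals ran from 0.365 to 0.968. Gpr37l1 stood at 1.01 over TPM with a pseudocount of 0.1. Depth limits Prx and Mag, whose counts reach 0, and Egr2, assembled in 1 library.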
